A study of Mus musculus with 6 samples.

Results

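The transcripts described here encode the subunits of respiratory complexes II, III, IV and V and cytochrome c, measured in RNA that co-precipitated with the RNA-binding protein Staufen2 and in input RNA. They were chosen by gene symbol, from the succinate dehydrogenase (Sdh), cytochrome bc1 (Uqcr, Cyc1), cytochrome c (Cycs), cytochrome oxidase (Cox, COX) and ATP synthase (Atp5) families. Of 19938 genes with a probe set of a single listed gene, 49 matched, comprising 4 of complex II, 9 of complex III, cytochrome c, 18 of complex IV and 17 of complex V. Cox7c and the mitochondrial gene ATP6 are listed only on probe sets shared with another gene and have no value here, and COX1, COX3, CYTB and ATP8 were not analysed here.

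The 6 arrays fall into 2 groups. The stau2 group holds 3 samples of RNA recovered with an antibody against Staufen2 from cytoplasmic lysate, and the input group holds 3 samples of total RNA. Both come from one immortalized mouse podocyte line, grown with interferon gamma at the permissive temperature and then differentiated without it at the higher one. Podocytes are the epithelial cells that cover the capillaries of the kidney glomerulus. Equal masses of RNA (100 ng) were labelled in both groups, so a value gives a transcript's part of the RNA and not its amount. A precipitation with an unrelated antibody was not among the samples, so a lower value describes the RNA recovered and not a lack of binding. The groups are also described by unlike starting material, cytoplasmic lysate against total RNA. A difference from that source cannot be told apart from recovery with the antibody.

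Complexes II to V are the part of oxidative phosphorylation that follows the entry of electrons at complex I. Complex II takes electrons from succinate, complex III passes them from ubiquinol to cytochrome c, complex IV hands them to oxygen, and complex V uses the resulting proton gradient to make ATP. Most subunits are encoded in the nucleus, made in the cytosol and imported, while a few hydrophobic core subunits are encoded by mitochondrial DNA. In complexes III to V a few larger catalytic or core subunits are joined by many small accessory ones, and some complex IV subunits have isoforms used in particular tissues.

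Values are log2 expression levels per probe set, and differences are pulldown minus input on that scale. A gene was called at an adjusted p under 0.05 in limma's moderated test, adjusted over all 19938 genes. Array pairs correlated at 0.998 to 0.999 within a group and at 0.982 to 0.983 between groups. Whether the replicates are separate cultures is not stated in the labels, and p-values then reflect only the variation among these 6 samples, which could be technical. Of 8 podocyte markers measured, 5 exceeded the median probe set (6.54) in the input, among them Wt1 and Synpo, while Nphs1, Podxl and Tcf21 did not. None of 5 endothelial, 1 of 4 immune, 2 of 5 mesangial and fibroblast and 3 of 5 tubular markers lay above it. Stau2 mRNA itself stood at 10.75 ± 0.018 in the pulldown and 10.78 ± 0.018 in the input (mean ± SD, n = 3). Both groups are bulk RNA, so the values do not show how a transcript is spread over the cells.

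Most of these transcripts were lower in the Staufen2 pulldown than in the input. Of the 49 genes, 42 were lower, 1 was higher and 6 did not pass the test. Of all genes tested, 17.3% were lower and 31.3% higher, and 48.7% were called in either direction. The higher genes made up 64.4% of all calls, and 52.9% when the arrays were scaled by cyclic loess. The median log2 difference of the 49 genes was -0.94, which is 1.91-fold lower, beside a median of 0.04 over all genes. At least 2-fold lower values were found for 24 of the 49, against 2.01% of all genes. Pulldown and input arrays did not overlap for 42 genes that were lower in the pulldown, against 19.6% of all genes. Of the 12162 genes above the median probe set in at least 1 group mean, 3255 were lower (26.8%) and 5577 higher. Of the 49 genes, 46 lay there, and 42 of these were lower (91.3%).

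**Figure D1:**
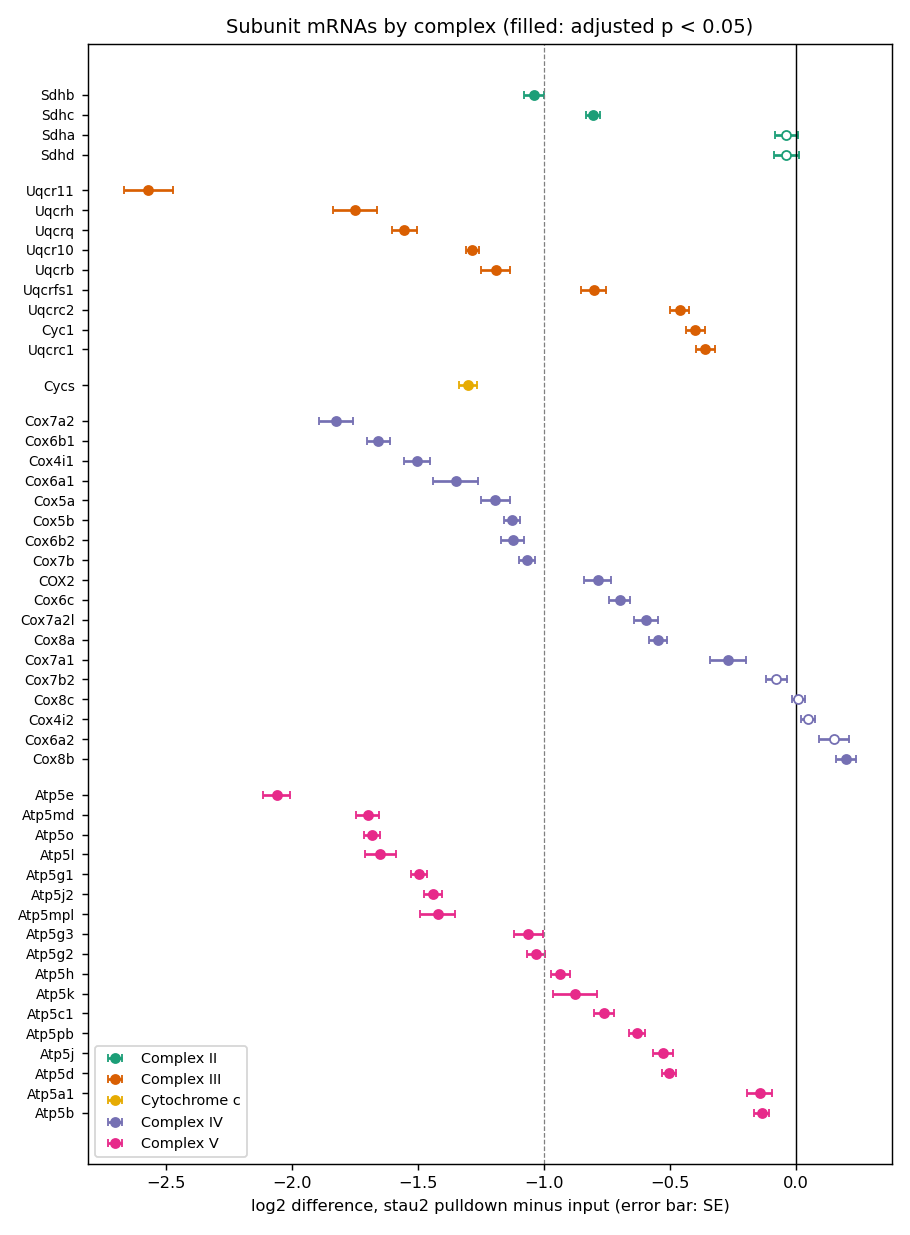
Log2 difference (pulldown minus input) of each of the 49 transcripts with its SE on the horizontal axis, grouped by complex and ordered by size within each. Filled points passed limma's test, open points did not, the solid line marks no difference and the dashed line a 2-fold lower value, and the points run from -2.57 for Uqcr11 to 0.20 for Cox8b.

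The extent of the difference varied within every complex. Grouped by role, the 12 catalytic or core subunits had a median of -0.48, and 11 of them were lower. The 28 accessory or membrane subunits, leaving out isoforms of particular tissues, had a median of -1.24, and 27 of them were lower. At least 2-fold lower values were found for 2 of the 12 and 20 of the 28. The other 9 genes were Cycs, Cox7a2l and 7 tissue isoforms. This grouping was made with the values known, so it is given as a description and was not tested.

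The sequences upstream of the start sites are shown for the transcript with the most negative difference in each complex and for cytochrome c, with Sdha beside them as a member that did not pass the test. They are the 250 bases before the start site in a table of RefSeq promoters (GRCm38.p6), 5′ to 3′ on the strand of the gene. Capitals mark a core of the NRF1 site (GCGCATGC or its reverse complement) or of the ETS site bound by GABP (CCGGAAG or its reverse complement), the motifs of regulators known for controlling respiratory genes. The windows are chr4:140961021-140961270 (plus strand) for Sdhb, chr13:74350241-74350490 (minus) for Sdha and chr10:80406822-80407071 (minus) for Uqcr11. Those of Cycs, Cox7a2 and Atp5e, all on the minus strand, are chr6:50566570-50566819, chr9:79759854-79760103 and chr2:174464102-174464351.
Sdhb: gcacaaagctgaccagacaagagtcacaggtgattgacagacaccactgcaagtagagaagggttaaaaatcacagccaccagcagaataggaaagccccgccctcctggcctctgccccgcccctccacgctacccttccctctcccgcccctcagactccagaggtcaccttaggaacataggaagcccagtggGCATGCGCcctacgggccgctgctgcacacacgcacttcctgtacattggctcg
Sdha: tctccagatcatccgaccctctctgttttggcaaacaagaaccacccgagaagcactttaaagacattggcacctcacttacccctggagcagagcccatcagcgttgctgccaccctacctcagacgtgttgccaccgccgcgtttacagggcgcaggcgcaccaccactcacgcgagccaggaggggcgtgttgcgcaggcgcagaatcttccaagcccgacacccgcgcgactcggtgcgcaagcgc
Uqcr11: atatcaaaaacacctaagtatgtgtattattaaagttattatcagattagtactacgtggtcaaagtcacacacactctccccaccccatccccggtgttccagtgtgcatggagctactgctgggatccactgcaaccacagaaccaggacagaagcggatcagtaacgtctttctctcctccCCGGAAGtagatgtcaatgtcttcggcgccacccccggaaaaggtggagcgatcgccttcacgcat
Cycs: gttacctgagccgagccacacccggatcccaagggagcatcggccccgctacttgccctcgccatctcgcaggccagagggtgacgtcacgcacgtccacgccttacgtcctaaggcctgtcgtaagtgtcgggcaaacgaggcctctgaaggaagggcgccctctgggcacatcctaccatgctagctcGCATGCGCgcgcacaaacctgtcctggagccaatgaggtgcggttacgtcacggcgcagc
Cox7a2: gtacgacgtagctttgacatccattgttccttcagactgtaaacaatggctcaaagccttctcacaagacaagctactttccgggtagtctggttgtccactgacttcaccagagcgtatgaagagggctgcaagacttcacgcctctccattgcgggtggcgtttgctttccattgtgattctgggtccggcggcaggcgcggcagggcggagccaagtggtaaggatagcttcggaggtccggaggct
Atp5e: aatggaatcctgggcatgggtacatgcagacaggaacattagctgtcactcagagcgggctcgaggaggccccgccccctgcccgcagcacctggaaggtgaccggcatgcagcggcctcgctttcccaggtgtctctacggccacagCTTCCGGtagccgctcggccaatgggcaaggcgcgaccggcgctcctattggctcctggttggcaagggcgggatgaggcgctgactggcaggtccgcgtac

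A promoter window was listed there for 36 of the 49 genes. The NRF1 core was present in 6 of these windows (16.7%), against 2.32% of the windows of 27025 genes, and the ETS core in 8 (22.2%), against 7.05%. Among the windows printed, those of Sdhb and Cycs hold the NRF1 core and those of Uqcr11 and Atp5e the ETS core. Neither motif as spelled was found in the windows of Sdha and Cox7a2. The arrays do not measure transcription, so these matches describe the genes and bear on no difference between the groups.

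Complex II, succinate dehydrogenase, was divided, with 2 of its 4 transcripts lower and 2 not past the test. Sdhb, the iron-sulfur subunit, had values of 10.00, 9.86 and 9.96 in the pulldown arrays, against 10.996, 10.99 and 10.95 in the input arrays. Sdhc, a membrane anchor that helps to bind ubiquinone, had values of 10.47, 10.49 and 10.46 in the pulldown and 11.25, 11.28 and 11.31 in the input. For both genes every pulldown array lay below every input array. The log2 differences were -1.04 ± 0.041 (SE) for Sdhb and -0.81 ± 0.029 for Sdhc, with limma adjusted p-values of 7.6e-07 and 6.1e-07.

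Sdha, the flavoprotein that oxidizes succinate, had values of 11.25, 11.17 and 11.34 in the pulldown and 11.31, 11.27 and 11.30 in the input. Sdhd, the other membrane anchor, had values of 11.33, 11.23 and 11.31 in the pulldown and 11.30, 11.26 and 11.42 in the input. The groups overlapped for both genes, and each had a difference of -0.04, with SEs of 0.045 and 0.049 and limma adjusted p-values of 0.51 and 0.54. After cyclic loess scaling both stood at -0.14 and passed the test, with limma adjusted p-values of 0.022 and 0.036. Within arrays, Sdhb changed by -1.001 ± 0.041 (SE) relative to Sdha. An exact two-sided permutation test over the 6 arrays gave p = 0.10, the smallest that 3 against 3 allows, for this and 2 further pairs given below, and 0.10 after adjustment over the 3 pairs, which were chosen with their values known.

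All 9 transcripts of complex III, the cytochrome bc1 complex, were lower in the pulldown, with a median difference of -1.19. The largest difference was that of Uqcr11, the smallest subunit of the complex in mammals, which ranked 15 among all genes counted from the most negative. Its values were 8.52, 8.33 and 8.15 in the pulldown arrays, against 11.001, 10.78 and 10.93 in the input arrays, and its 2 probe sets gave differences of -2.57 and -2.79. Uqcrh, the acidic hinge protein that aids the contact between cytochromes c1 and c, had values of 9.91, 9.65 and 9.83 in the pulldown and 11.68, 11.39 and 11.56 in the input. For Uqcrq, the ubiquinone-binding protein, they were 8.67, 8.59 and 8.75 in the pulldown and 10.26, 10.23 and 10.17 in the input. No pulldown array of these 3 genes reached the lowest input array. The fold differences were 5.93 (Uqcr11), 3.36 (Uqcrh) and 2.93 (Uqcrq) lower, with limma adjusted p-values of 6.7e-07, 2.2e-06 and 3.4e-07.

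Uqcr10 and Uqcrb, further small subunits of complex III, were lower by 2.43-fold and 2.28-fold, so that all 5 accessory subunits were at least 2-fold lower. The 4 larger subunits were lower by less than 2-fold. Uqcrc1, a core protein related to mitochondrial processing peptidases, had values of 10.98, 10.94 and 11.05 in the pulldown and 11.32, 11.34 and 11.39 in the input. Cyc1, cytochrome c1, had values of 10.88, 10.75 and 10.81 in the pulldown and 11.20, 11.22 and 11.22 in the input. The groups were separate in both cases, by a small step. Their differences were -0.36 ± 0.036 (SE) and -0.40 ± 0.037, while Uqcrc2, the other core protein, stood at -0.46 and Uqcrfs1, the Rieske iron-sulfur protein, at -0.80. Relative to Uqcrc1, Uqcr11 changed by -2.21 ± 0.15 within arrays.

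**Figure D2:**
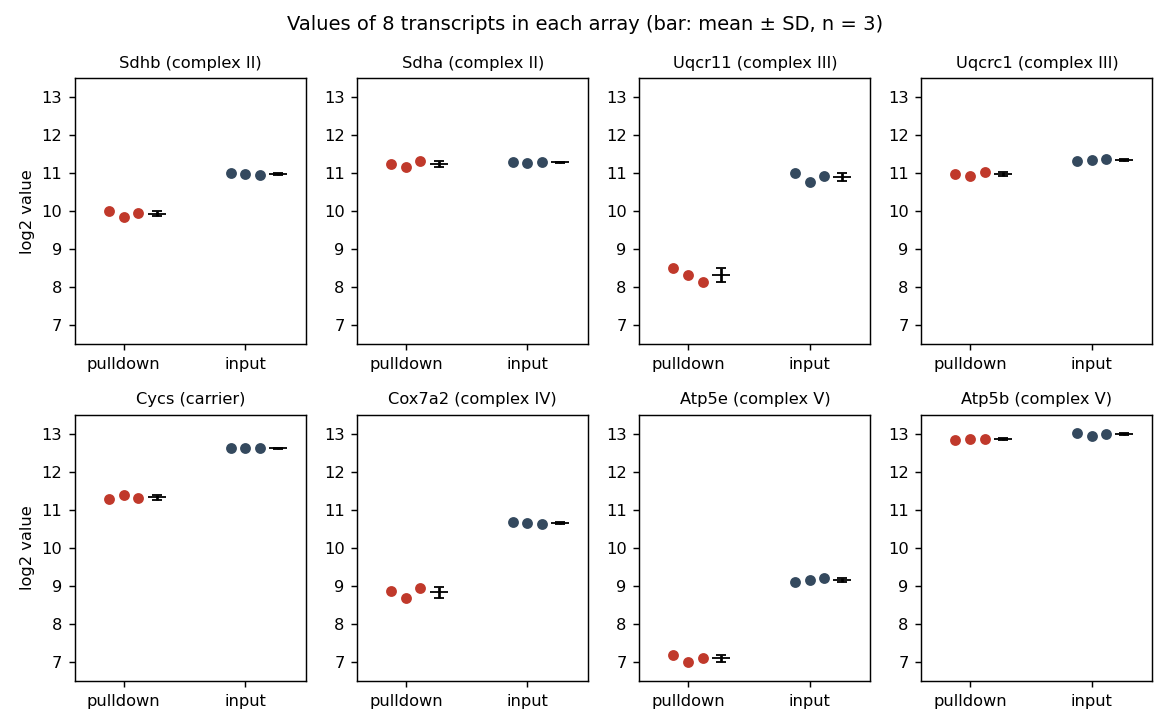
Log2 values of 8 transcripts in each of the 3 pulldown and 3 input arrays, with the mean and SD of each group drawn beside the points. Sdha overlaps between the groups and Atp5b differs by -0.14, while Uqcr11 and Atp5e differ by -2.57 and -2.06.

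Cytochrome c is the soluble carrier between complexes III and IV and also activates caspases when released. It was lower in the pulldown on its brightest probe set. Cycs had values of 11.28, 11.40 and 11.31 in the pulldown arrays, against 12.62, 12.65 and 12.63 in the input arrays. The groups were far apart relative to their spread, and the difference of -1.30 ± 0.037 (SE) is 2.46-fold lower (limma adjusted p = 2.9e-07). A second probe set gave -1.31. The remaining one, at 5.47 in the pulldown and 5.36 in the input, lay below the median probe set and differed by 0.11. Averaged over its 3 probe sets, Cycs stood at -0.83 (limma adjusted p = 7.5e-07). In order of probe set numbers, the dim one falls between those of Ndufa5 and Ndufa9, on chromosome 6 like Cycs itself. The brightest falls between those of Mdh2 and Cox7b2, on chromosome 5. By that order the 2.46-fold value comes from a copy, and the set at the gene is the dim one, which differed by 0.11. The positions of the probes themselves were not examined.

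Complex IV, cytochrome c oxidase, had 13 transcripts lower, 1 higher and 4 not past the test, and 6 of its tissue isoforms stood near or below the median probe set in both groups. Leaving out the isoforms known from particular tissues, all 11 remaining transcripts were lower, with a median of -1.13. COX2 is the mitochondrially encoded subunit that receives electrons from cytochrome c. Its brightest probe set had values of 12.05, 12.23 and 12.03 in the pulldown and 12.90, 12.90 and 12.87 in the input. No values overlapped, and the difference was -0.79 ± 0.054 (limma adjusted p = 9.8e-06), within the range of the nuclear-encoded subunits. The other probe set of COX2, at 12.09 in the pulldown and 12.79 in the input, gave -0.70. In order of probe set numbers, the brightest falls between those of Sdhaf4 and Coa5, both on chromosome 1, and the other beside that of the mitochondrial ND3. By that order -0.70 is the value at mitochondrial DNA and -0.79 that at a nuclear copy. The positions of the probes themselves were not examined.

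The most negative differences of complex IV were those of Cox7a2, Cox6b1 and Cox4i1. Cox7a2, the widely expressed form of a small membrane subunit, had values of 8.86, 8.67 and 8.96 in the pulldown and 10.67, 10.67 and 10.63 in the input. Cox6b1, a subunit at the cytochrome c side of the enzyme, had values of 10.60, 10.68 and 10.52 in the pulldown and 12.30, 12.24 and 12.23 in the input. Cox4i1, the widely expressed form of the largest nuclear-encoded subunit, had values of 9.78, 9.65 and 9.70 in the pulldown and 11.28, 11.12 and 11.24 in the input. In each case the 3 pulldown arrays lay more than a log2 unit below the input arrays. They were lower by 3.54-fold, 3.15-fold and 2.84-fold, with limma adjusted p-values of 6.4e-07, 2.7e-07 and 4.7e-07.

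Cox5a and the zinc-binding subunit Cox5b, which sit on the matrix side, were lower by 2.29-fold and 2.18-fold, Cox6a1 by 2.55-fold and Cox7b by 2.10-fold. Cox6c (-0.70) and Cox8a (-0.55), small membrane subunits, and Cox7a2l (-0.60), a factor that joins complexes III and IV into supercomplexes, were lower by less than 2-fold. All 7 had limma adjusted p-values at or below 2.8e-05.

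Of the 7 isoforms known from particular tissues, Cox6b2, described from testis, was the one measured well above the median probe set. It averaged 9.05 ± 0.066 in the pulldown and 10.17 ± 0.065 in the input (SD, n = 3) and was lower by 2.18-fold (limma adjusted p = 9.9e-07). The other 6 had means between 4.81 and 7.11 in the pulldown and between 4.89 and 6.99 in the input. At such levels signal can be background, so that a difference has little room to appear.

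Cox6a2, the heart and muscle form, had values of 7.08, 7.14 and 7.12 in the pulldown and 6.97, 7.08 and 6.84 in the input. Cox4i2, the lung form, had values of 7.03, 7.05 and 7.04 in the pulldown and 6.99, 6.97 and 7.02 in the input. Their differences of 0.15 and 0.05 did not pass (limma adjusted p = 0.074 and 0.19), although Cox6a2 passed at 0.21 without input replicate 2 (limma adjusted p = 0.014) and at 0.15 when only genes above the median probe set were tested (limma adjusted p = 0.042). Cox7a1, the heart and muscle form, averaged 6.43 ± 0.14 in the pulldown and 6.70 ± 0.053 in the input and was lower, at -0.27 (limma adjusted p = 0.015). That call was lost without pulldown replicate 2 (-0.22) or 3 (-0.24) and without input replicate 1 (-0.25) or 3 (-0.27). Cox8b, the heart and muscle form, was the 1 higher transcript, at 5.96 ± 0.057 in the pulldown and 5.76 ± 0.044 in the input, both below the median probe set. Cox7b2 (-0.079) and Cox8c (0.0083), described from testis, did not pass.

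**Figure D3:**
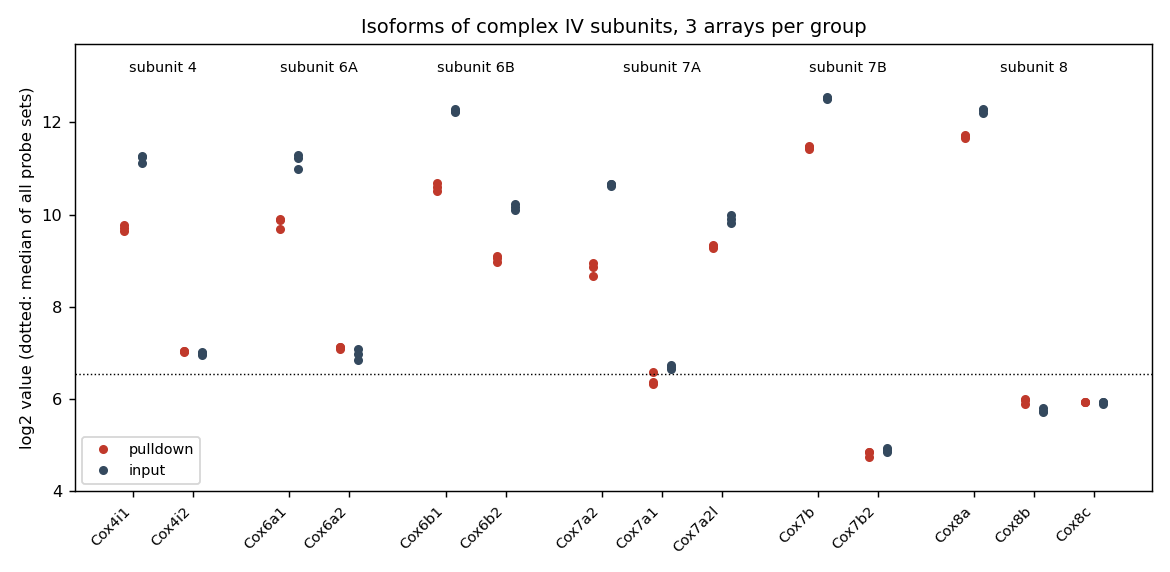
Log2 values of isoforms of complex IV subunits, with the 3 pulldown arrays at the left and the 3 input arrays at the right of each gene and the median probe set (6.54) as a dotted line. The forms well above the line, Cox6b2 included, are lower in the pulldown, and the 6 forms near or below it differ by between -0.27 and 0.20.

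All 17 transcripts of complex V, the ATP synthase, were lower in the pulldown, with a median of -1.03. The range was widest within the F1 head, the soluble part that makes ATP. Atp5b, the beta subunit with the catalytic sites, had values of 12.83, 12.88 and 12.88 in the pulldown and 13.03, 12.96 and 13.01 in the input. Atp5a1, the alpha subunit, had values of 12.07, 11.92 and 12.09 in the pulldown and 12.21, 12.15 and 12.15 in the input. Atp5e, the small epsilon subunit of the central stalk, had values of 7.19, 6.996 and 7.10 in the pulldown and 9.11, 9.15 and 9.20 in the input. The alpha and beta transcripts were separated from the input by a small step, and the epsilon transcript by a large one.

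The log2 differences were -0.14 ± 0.031 for Atp5b, -0.15 ± 0.048 for Atp5a1 and -2.06 ± 0.053 for Atp5e (SE), with limma adjusted p-values of 0.0072, 0.040 and 2.4e-07. The call of Atp5a1 was lost without pulldown replicate 1 (-0.17) or 2 (-0.094) and without input replicate 1 (-0.13), 2 (-0.15) or 3 (-0.16). Relative to Atp5b, Atp5e changed by -1.92 ± 0.078 within arrays. The remaining central stalk subunits lay between, with Atp5c1 (gamma) at -0.76 and Atp5d (delta) at -0.50.

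The peripheral stalk, which holds the head against the turning rotor, had 4 transcripts, all lower, with a median of -0.78. Atp5o, which encodes the subunit that confers sensitivity to oligomycin, had values of 9.87, 9.81 and 9.91 in the pulldown and 11.55, 11.54 and 11.54 in the input. Those arrays agreed closely within each group, and the difference of -1.68 ± 0.033 had a limma adjusted p of 1.9e-07. Atp5h stood at -0.94, Atp5pb at -0.63 and Atp5j at -0.53.

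In the membrane part, Atp5g1, Atp5g2 and Atp5g3 encode the same mature subunit of the rotor ring behind different targeting sequences. They were lower by 2.82-fold, 2.05-fold and 2.09-fold, with means of 10.98, 10.89 and 10.86 in the pulldown and 12.47, 11.92 and 11.92 in the input. Of the 5 small membrane subunits outside the ring, Atp5md had values of 10.82, 10.90 and 10.72 in the pulldown and 12.52, 12.50 and 12.52 in the input. Its difference of -1.70 ± 0.046 was the largest of them, and the pulldown arrays lay far below the input arrays. Atp5l stood at -1.65, Atp5j2 at -1.44, Atp5mpl at -1.42 and Atp5k at -0.88.

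Several genes had more than 1 probe set, which tests the same transcript, or copies of it elsewhere in the genome, with partly other probes. The differences of the probe sets of a gene lay within 0.060 to 0.23 of each other for 13 of the 14 genes with several, and the exception was the dim probe set of Cycs. The 6 probe sets of Atp5l gave -1.56 to -1.68. Genes of this kind have many processed pseudogenes, and signal from a gene and its near-identical copies cannot be told apart on these probe sets. The values given are those of the brightest probe set. Whether it lies at the gene or at a copy was examined only for Cycs and COX2, by the order of probe set numbers.

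Neither the level nor the size of the gene ordered the differences closely. Across the 45 nuclear genes above the median probe set, Spearman's rank correlation of the difference was 0.019 with the input level and 0.16 with the genomic span, introns included. Across 11770 coding genes above that median it was 0.48 with span. These are correlations across genes on the same arrays and scaling, given as a description. The median span was 6.75 kb for the 45 genes and 23.5 kb for the 11770. Their spans ran from 0.932 to 28 kb and from 0.304 to 2270 kb, so the correlations with span cover unlike ranges. The 45 include the dim isoforms Cox4i2, Cox6a2 and Cox7a1, and no correlation was computed without them.

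**Figure D4:**
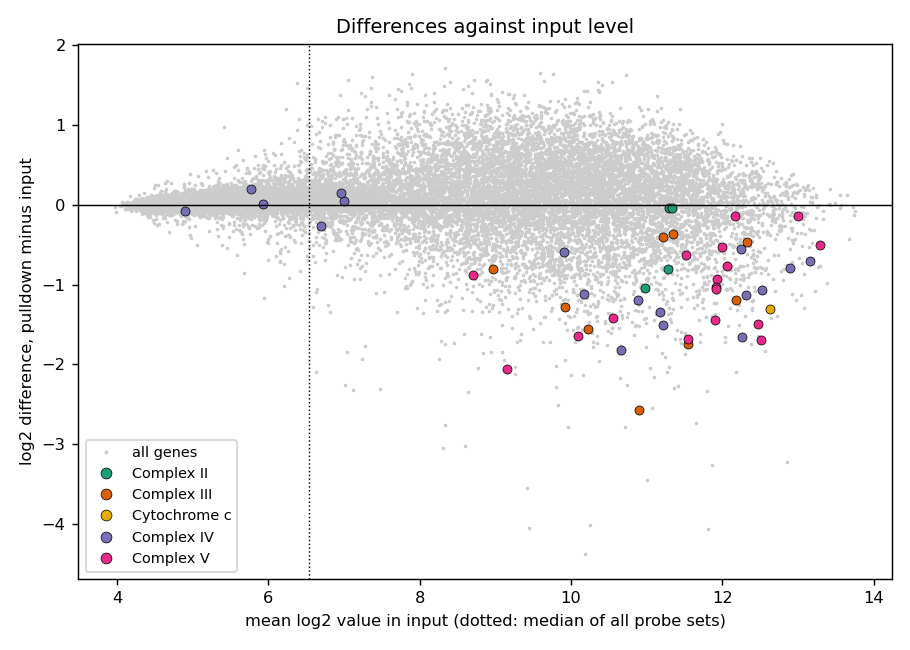
Log2 difference (pulldown minus input) against the mean log2 level in the input for all 19938 genes in grey and for the 49 transcripts coloured by complex, with the median probe set as a dotted line. The transcripts of complexes II to V lie mostly below zero across input levels from 8.70 to 13.29, and the 6 dim isoforms of complex IV lie near zero at the left.

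Genes next to these complexes in the pathway were counted in the same way, beside 17.3% lower and 31.3% higher over all genes. Complex I feeds electrons from NADH into the chain. Of 37 genes listed by symbol as its subunits, 35 were lower, 1 was higher and 1 did not pass, with a median of -1.14. The 1 that did not pass was Ndufa4l2, held in the list by its symbol. It stood at 6.38 in the pulldown and 6.39 in the input, below the median probe set. Ndufa11 (-2.33), the mitochondrially encoded ND3 (-2.10), Ndufb9 (-1.91) and Ndufa6 (-1.20) had the smallest p-values among them. Ndufs1, the largest subunit of complex I, was the higher one (0.20), and is named after its value was seen. Of 7 small proteins that associate with complexes IV or V, 3 of which belong to the 49, 6 were lower and none higher. Ndufa4, now counted with complex IV and also held in the complex I list by its symbol, stood at -1.68 and Higd2a, an assembly aid, at -0.74.

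Of 36 assembly factors of complexes II to V, 25 were lower, 6 higher and 5 did not pass, with a median of -0.35, beside 17.3% of all genes lower and 31.3% higher. The lower ones included Uqcc2 (-1.87), Coa3 (-1.40), Cmc1 (-1.19) and Bcs1l (-0.9997), which act in building complexes III and IV. The 6 higher ones, named after their values were seen, were Lrpprc (0.56), which stabilizes mitochondrial mRNAs, Cox15 (0.30), which makes heme A, and Ttc19 (0.27), Uqcc1 (0.22), Lyrm7 (0.22) and Sco1 (0.17).

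Of 17 enzymes of the tricarboxylic acid cycle and pyruvate dehydrogenase, with succinate dehydrogenase left out, 10 were lower, 5 higher and 2 did not pass, with a median of -0.16. The 5 of 17 are no more than the 31.3% of all genes that were higher. All 17 lay above the median probe set, and of the 12162 genes there 5577 were higher and 3255 lower. Idh3g (-0.81) and Mdh2 (-0.59) were lower. Dld (0.45) and Dlat (0.38), subunits of the pyruvate dehydrogenase complex, were higher. Of 7 carriers that bring substrates to the ATP synthase across the mitochondrial membranes, 5 were lower and none higher (median -0.25), with Slc25a5, an ADP/ATP carrier, at -1.04, the phosphate carrier Slc25a3 at -0.25 and the outer membrane channels Vdac3 and Vdac2 at -0.83 and -0.36.

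The last list holds regulators of mitochondrial biogenesis, which control the transcription of respiratory genes or the upkeep of mitochondrial DNA. Of 13, 8 were higher, 1 lower and 4 did not pass, with a median of 0.18, beside 31.3% of all genes higher. All but Ppargc1a lay above the median probe set, where 5577 of 12162 genes were higher. Pprc1, a coactivator, was higher by 0.69 ± 0.067, Gabpa, the ETS factor of the motif described above, by 0.61 ± 0.039, the mitochondrial DNA polymerase Polg by 0.57 ± 0.038 and the helicase Twnk by 0.32 ± 0.033 (SE). These lists were not tested against each other.

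**Figure D5:**
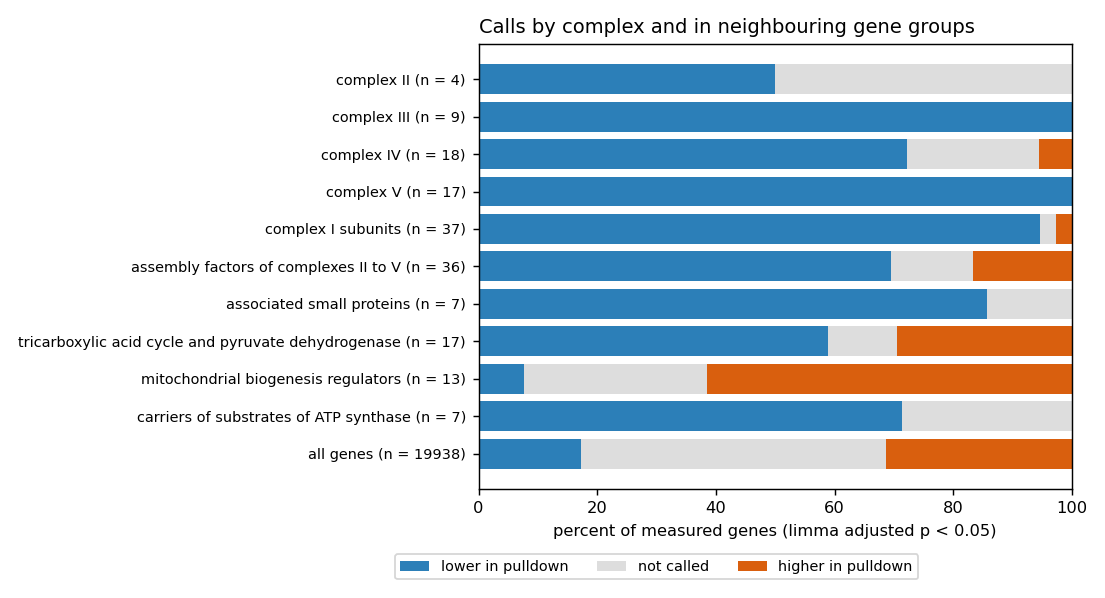
Percent of measured genes that were lower, not called or higher in the pulldown (horizontal axis) for complexes II to V, neighbouring groups of the pathway and all genes, with the number of genes beside each name. All genes of complexes III and V are lower, and 8 of the 13 regulators of mitochondrial biogenesis are higher.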

How the data were processed

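Transcripts were measured on 6 arrays of a mouse whole-transcript platform, 3 per group. The deposited values are log2 expression levels per probe set, summarised with RMA, and limma is named too, per the submitters' processing notes. Their versions and the genome build are not given in the sources used here. Array medians lay between 6.53 and 6.54, and with distributions made alike a difference is relative to all other RNAs. Of 35556 probe sets, 21789 had 1 listed symbol in the platform annotation. Symbols were updated through Entrez identifiers to a RefSeq table (GRCm38.p6), which matched 19856 of 19938 genes, and the brightest probe set over 6 arrays stood for a gene.

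Pulldown minus input was fitted with limma 3.58.1 in R 4.3.3 (lmFit and eBayes, 2-sided, no covariates), with Benjamini-Hochberg adjustment over all genes and a threshold of 0.05. SEs are moderated. The procedure was tested on simulated data. Replicate numbers occur in both groups, but same-numbered arrays showed little shared deviation over all genes (correlations of 0.024, 0.11 and -0.060), so no block was used. Only pulldown replicate 2 correlated most with the input array of its own number. The members and lists were chosen with earlier results of these data known. All 49 members may be named. Values per array are given for COX2, Cycs and, in each complex, the 3 most negative and 2 most positive differences above the median probe set, and from each pathway list the 4 genes with the smallest p. Motifs were searched on both strands in the window of the first listed start site of each gene. Markers were checked as levels. Protein lengths and identities had been planned but were not used here, and genomic span from the gene table took their place. The alternatives tried were those in the closing section. Figures were drawn with matplotlib 3.10.9. Arrays have no read depth, so their number limits the precision, with a median SE of 0.039 over all genes.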

Additional observations from a re-analysis of the deposited data

How the results depend on the processing

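The alternatives were a replicate block, an intensity trend, cyclic loess, centring on the brightest probe sets, restriction to genes above the median, array weights, averaging over probe sets, testing against 1.2-fold, dropping the variance moderation and omitting each array in turn. Of the 42 lower transcripts, 38 stayed lower and past the test under all 15. The exceptions were Uqcrc1 and Atp5b under the 1.2-fold test (limma adjusted p = 0.063 and 1), and Cox7a1 and Atp5a1, which also missed it (limma adjusted p = 1 each) and did not pass without moderation (adjusted p = 0.082 and 0.12). With the replicate block 42 were lower and 1 higher, with the same calls for all 49. The number higher was 0 in the 1.2-fold test, which called 1822 genes lower and 3034 higher over the whole table, against 3459 and 6246. Complex II had 4 lower transcripts after cyclic loess. The median of the 49 was -1.04 after cyclic loess and -1.04 among genes above the median only, where fewer genes were tested and the 1 higher transcript was Cox6a2, since Cox8b was left out. Without single arrays it was -0.97 to -0.91, with 40 to 41 lower and 1 to 2 higher. Without single arrays Sdha ranged over -0.082 to 0.003, Sdhd over -0.074 to 0.0081 and Cox8c over -0.0018 to 0.013, none past the test. Cox8c stood at -0.022 after cyclic loess and -0.0029 after centring, neither past the test. The cause of these changes was not tested. Signal near background limits what the 6 dim isoforms can show.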
